A study of Sus scrofa with 6 samples.

Results

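Oxidative phosphorylation genes encode the 5 protein complexes of the mitochondrial inner membrane that turn the energy of NADH and succinate into ATP. They were taken from a table of 22861 pig genes by their symbols, namely the NDUF subunits of complex I, the SDH subunits of complex II, the UQCR subunits of complex III, the COX4 to COX8 subunits of complex IV, the ATP5 subunits of complex V, and the protein genes of the mitochondrial genome whose symbols carry the MT prefix. The symbols gave 67 genes, none of them annotated as a pseudogene, of which 56 lie in the nuclear genome and 11 in the mitochondrial genome. Complex I had 30 members, complex II 2, complex III 5, complex IV 16 and complex V 14. NDUFA4 was placed with complex IV, where its protein resides. The symbols also brought in COX7A2L, an assembly factor, and ATP5S, coupling factor B, which were counted with complexes IV and V. The authors' older symbols were kept, so that ATP5A1, for example, is the gene now called ATP5F1A.

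Complexes I to IV pass electrons from NADH and succinate to oxygen. Complexes I, III and IV use that flow to pump protons out of the mitochondrial matrix, and complex V, the ATP synthase, lets the protons return and makes ATP. Complex II is built wholly from nuclear genes, whereas the other complexes combine nuclear subunits with a small core made inside the mitochondrion, so the complete machine needs transcripts from both genomes. The mitochondrial genes are transcribed from each strand as long precursors that are then cut into single messengers, and the counts of neighbouring genes are therefore not independent of each other. In the arterial wall these complexes supply part of the ATP that contractile smooth muscle uses.

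RNA sequencing was done on abdominal aorta of 2 lines of swine. The lesion group, labelled WMS FH, consisted of aorta with atherosclerotic lesions, and the lesion-free group, labelled WMS normal, consisted of aorta without them. Each group held 11 animals, whose RNA went into 3 pools, numbered 1 to 3 in the lesion group and 4 to 6 in the lesion-free group. Lesions and swine line changed together and cannot be told apart, and no treatment, diet, age or sex was given for either group. Values are counts scaled to a common library size (CPM), and a positive log2 fold is higher in the lesion pools. A pool is 1 replicate, so errors are between pools and not between animals.

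Depth was lowest in lesion pool 1, with 4650176 counts in all, and highest in lesion pool 3, with 11442433. The first of these also stood apart in its values. Over all 11673 genes tested, the interquartile range of log2 CPM about the lesion-free mean was 1.89 in that pool. It was 0.94 in lesion pool 2 and 0.87 in lesion pool 3. In the lesion-free pools it lay between 0.57 and 0.79. These pools are part of that mean, which narrows their range, so they do not compare directly with the lesion pools. Contractile smooth muscle markers were present in every pool, with a summed level of 38934 to 51167 CPM in the lesion pools and 78074 to 87927 CPM in the lesion-free pools, and 2 of the 10 tested, CNN1 and DES, passed the test as lower. Macrophage markers summed to 1608 to 3488 CPM in the lesion pools and 207 to 387 CPM in the lesion-free pools, and 10 of the 12 tested passed as higher. CD163, another macrophage marker of the list, had at most 7 counts in a pool and did not pass the filter. Of the markers of endothelium, fat cells and red cells, 7, 2 and 2 were tested and 0 were called. All 7 endothelial markers had a log2 fold above 0, beside 5821 of all 11673 genes tested. PECAM1, at 0.77 (SE 0.25, adjusted p = 0.234), and TEK, at 0.87 (SE 0.37, adjusted p = 0.418), were higher without overlap, and the rest overlapped. Of all genes tested, 10.5% were higher without overlap. Of the skeletal muscle markers 2 were tested. ACTA1 passed as lower, with a log2 fold of -1.69 (adjusted p = 0.0165), and PYGM, at -0.66 (adjusted p = 0.388), did not pass. MYH7 and TNNC2 had 0 counts in all pools. MYH1, which did not pass the filter, had 0, 48 and 37 counts in the lesion pools and 0, 0 and 8 counts in the lesion-free pools. The part that these differences in cell markers have in the values below was not tested. In bulk tissue, fewer cells of a type and less RNA per cell cannot be told apart.

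No oxidative phosphorylation gene was called changed between lesion and lesion-free aorta. Of the 65 members that passed the filter on low counts, 0 were higher and 0 lower at an adjusted p under 0.05 (limma, Benjamini-Hochberg over all genes), where 1.05% of all genes tested passed in either direction. The smallest adjusted p of a member was 0.439, for NDUFA8. At an unadjusted p under 0.05, 3 members were lower, NDUFA8, NDUFB9 and COX5B, beside 4.15% of all genes, and 0 were higher, beside 6.49% of all genes. These counts moved with the processing, to 0 lower and 0 higher under total count scaling, 1 lower and 0 higher in the unweighted fit, and 1 lower and 1 higher with sample quality weights. The lesion and lesion-free pools did not overlap in 5 members, all of them lower in the lesion pools and all nuclear subunits of complex I, where 8.97% of all genes did so. None of the members was higher without overlap, where 10.5% of all genes were. In either direction the groups stood apart in 7.69% of members and in 19.4% of all genes tested.

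The median log2 fold of the members was -0.15, beside -0.00 for all genes tested, and 47 of the 65 members had a log2 fold below 0. Single values ran from -1.06 for ATP5D to 0.30 for ATP5E. The lean to negative values rested on a few pools and on the scaling. Without lesion-free pool 4 only 28 of 65 members lay below 0, without lesion pool 2 this was 31, and with libraries scaled by their plain totals, which moved the median of all genes to 0.16, it was 31 as well. Without lesion pool 1 it rose to 56, and without lesion-free pool 6 to 58. No direction is therefore given for the group as a whole.

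**Figure D1:**
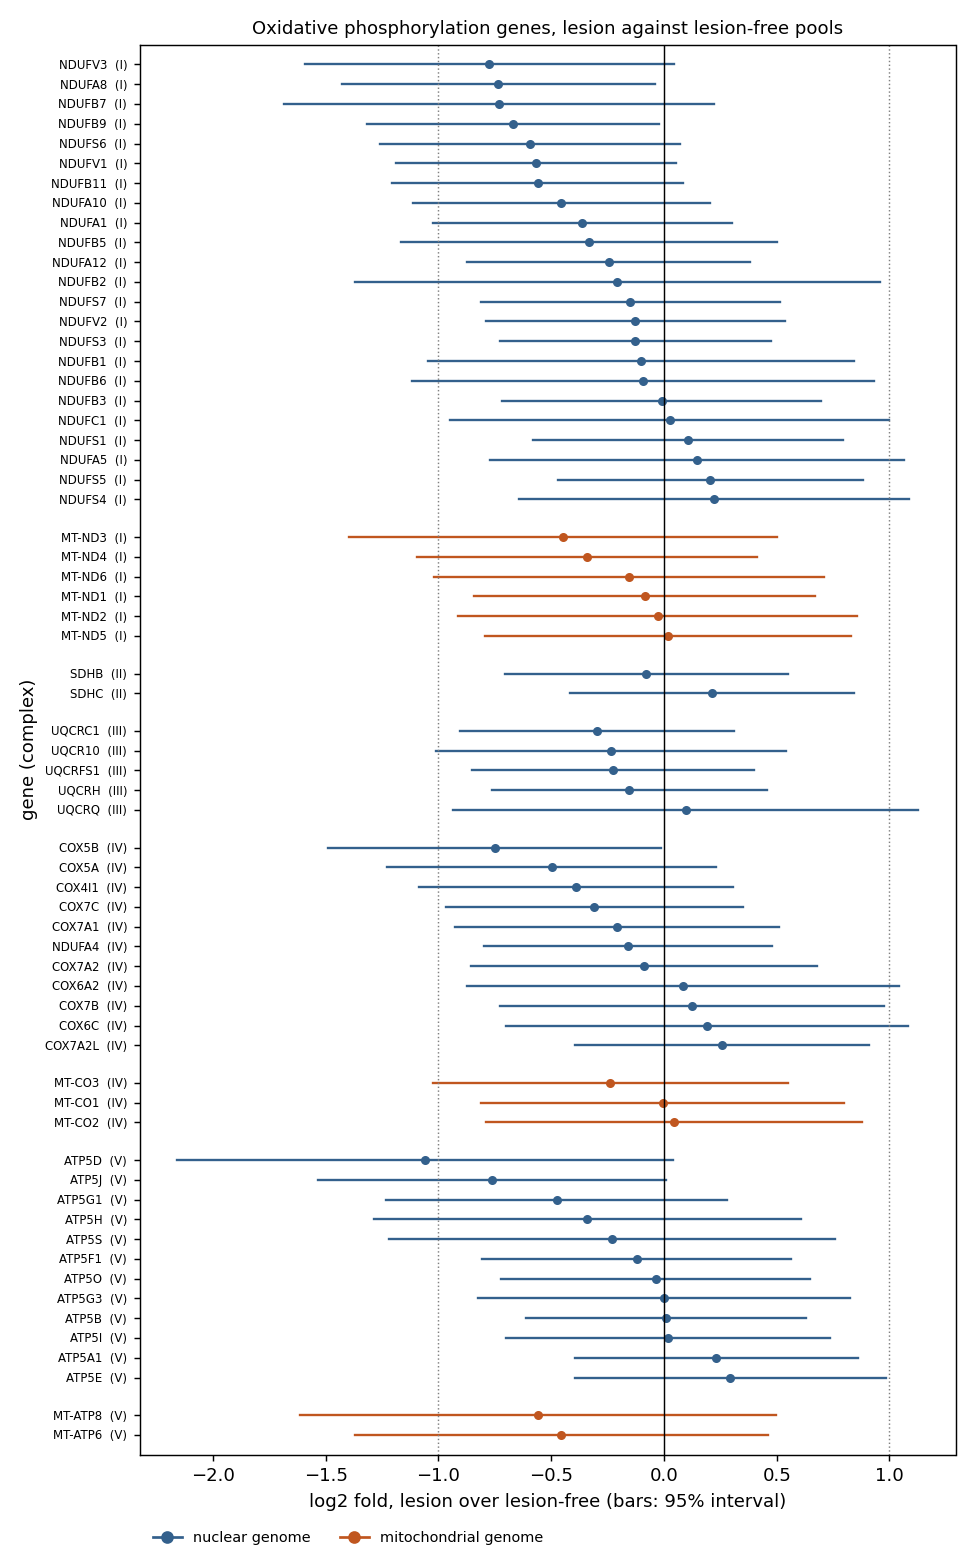
Log2 fold of lesion over lesion-free aorta (x axis) for the tested genes described here (y axis), grouped by complex, with 95% intervals as bars. Blue marks nuclear and orange mitochondrial genes, and the dotted lines stand at a 2-fold difference in each direction. The bars cross 0 for all genes but NDUFA8, NDUFB9 and COX5B, and values run from -1.06 for ATP5D to 0.30 for ATP5E.

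The precision of these values bounds what could be seen. The standard error of a member's log2 fold lay between 0.27 and 0.55, with a median of 0.34. The 95% interval stayed inside a 2-fold difference in both directions for 31 of the 65 members, still held a 2-fold fall for 28, and still held a 2-fold rise for 6. Within a group, the median distance between a member's highest and lowest pool was 0.94 on the log2 scale in the lesion pools and 0.90 in the lesion-free pools. The median size of a member's log2 fold was 0.21. For 59 of the 65 members the difference between the groups was smaller than the spread among the lesion pools. That sets a difference of group means against the full range of single pools. It was not counted for all genes, so it does not set the members apart from other genes.

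Nuclear and mitochondrial members had nearly the same median log2 fold, -0.15 over 54 nuclear genes and -0.15 over 11 mitochondrial genes. With sample quality weights these medians were -0.02 and -0.26. The order of the pools was similar in both genomes. Lesion-free pool 4 was the highest and lesion pool 2 the lowest of the lesion pools in each. The lowest of all pools was lesion-free pool 6 for nuclear and lesion pool 2 for mitochondrial members. The summed level of the nuclear members was 6454, 5131 and 6121 CPM in lesion pools 1 to 3 and 9591, 5872 and 4973 CPM in lesion-free pools 4 to 6. Lesion-free pool 4 was far above the other 5 pools, and the group means of 5902 ± 688 and 6812 ± 2448 CPM (SD, n = 3 each) overlapped. The summed level of the mitochondrial members was 53567, 22184 and 62039 CPM in the lesion pools and 64964, 45327 and 38443 CPM in the lesion-free pools. Here lesion pool 2 was the lowest of all, while lesion pools 1 and 3 lay within the lesion-free range, and the group means were 45930 ± 20996 and 49578 ± 13762 CPM (SD, n = 3 each).

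As a share of all counts, mitochondrial members took 5.98%, 2.47% and 5.93% in lesion pools 1 to 3 and 5.56%, 4.45% and 3.82% in lesion-free pools 4 to 6. Nuclear members took 0.721%, 0.571% and 0.585% in the lesion pools and 0.821%, 0.577% and 0.494% in the lesion-free pools. The balance of both genomes can be followed as the ratio of mitochondrial to nuclear counts within a pool, a quantity that library scaling does not touch. It is a ratio of counts and not of molecules per gene, because transcript lengths were not used. The ratio was 8.30, 4.32 and 10.1 in the lesion pools, and 6.77, 7.72 and 7.73 in the lesion-free pools. The lesion pools lay on both sides of the lesion-free pools, and their spread was wider, with 7.59 ± 2.97 against 7.41 ± 0.549 (SD, n = 3 each). The log2 ratio differed by -0.05 between the groups with all pools and by 0.31 without lesion pool 2.

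**Figure D2:**
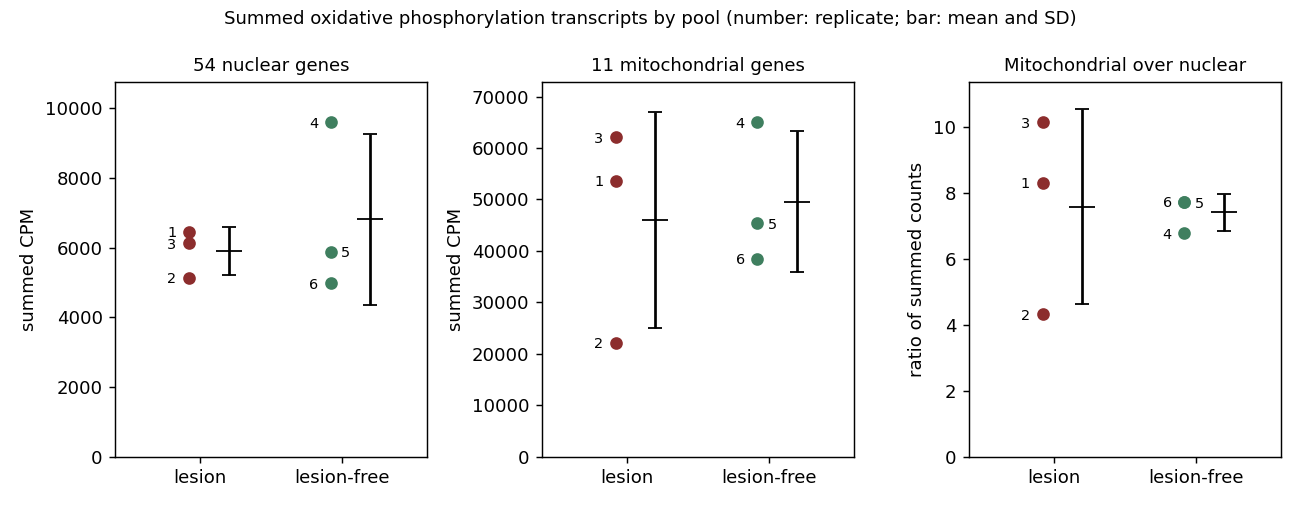
Summed CPM of 54 nuclear genes (left), summed CPM of 11 mitochondrial genes (middle) and the ratio of mitochondrial to nuclear counts (right) for each pool, by group on the x axis. Points are pools with their numbers, and bars give the mean and SD of 3 pools. Lesion pool 2 has the lowest mitochondrial sum (22184 CPM) and the lowest ratio (4.32), and lesion-free pool 4 has the highest nuclear sum (9591 CPM).

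The same ratio within single complexes gave the same order of lesion pools, with pool 2 lowest and pool 3 highest. For complex I it was 11.9, 5.73 and 14.4 in the lesion pools and 8.82, 9.94 and 8.91 in the lesion-free pools. For complex IV the values were 10.4, 5.65 and 10.6 in the lesion pools and 6.62, 8.48 and 9.56 in the lesion-free pools. For complex V they were 5.26, 2.88 and 8.93 in the lesion pools and 7.05, 6.82 and 6.87 in the lesion-free pools. In each of the 3 complexes the lesion pools spread over both sides of the lesion-free mean, and the lesion-free pools of complex V differed least, with an SD of 0.123 (n = 3).

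All 11 mitochondrial members were lowest in lesion pool 2. Their log2 CPM in that pool lay between 0.83 and 1.80 below the lesion-free mean, with a median of -1.06, whereas the median was 0.15 in lesion pool 1 and 0.37 in lesion pool 3. The nuclear members of lesion pool 2 had a median of -0.32. Both mitochondrial ribosomal RNA genes, which are no members, were lowest in lesion pool 2 as well. Of the red cell markers tested, HBB was lowest there too, but SLC4A1 was not. SLC4A1 stood at 3.31 CPM in lesion pool 2, 2.01 CPM in lesion pool 3 and 1.20 to 2.48 CPM in the lesion-free pools. Lesion pool 2 was among the deeper libraries, with 10055160 counts. Without lesion pool 2 the median log2 fold of the mitochondrial members was 0.27 and that of the nuclear members -0.07. Without lesion-free pool 4 these medians were 0.07 and 0.05.

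Lesion-free pool 4 was the highest pool for 44 of the 65 members, 38 nuclear and 6 mitochondrial. The median deviation of its members from the lesion-free mean was 0.52 on the log2 scale for nuclear and 0.47 for mitochondrial genes. Mitochondrial ribosomal proteins, which translate the mitochondrial messengers, summed to 2953 CPM in that pool and to 1765 to 2020 CPM in the other 5. Lesion pool 1 was the highest pool for 14 members and the lowest for 17, and those 17 were all nuclear. The interquartile range of its nuclear members' deviations was 1.21, against 0.53 in lesion pool 2 and 0.38 in lesion pool 3. In the lesion-free pools, which are part of the mean used, it was 0.22 to 0.31. The lowest nuclear member of lesion pool 1 was ATP5D, at -2.57, and the highest NDUFA5, at 1.34.

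**Figure D3:**
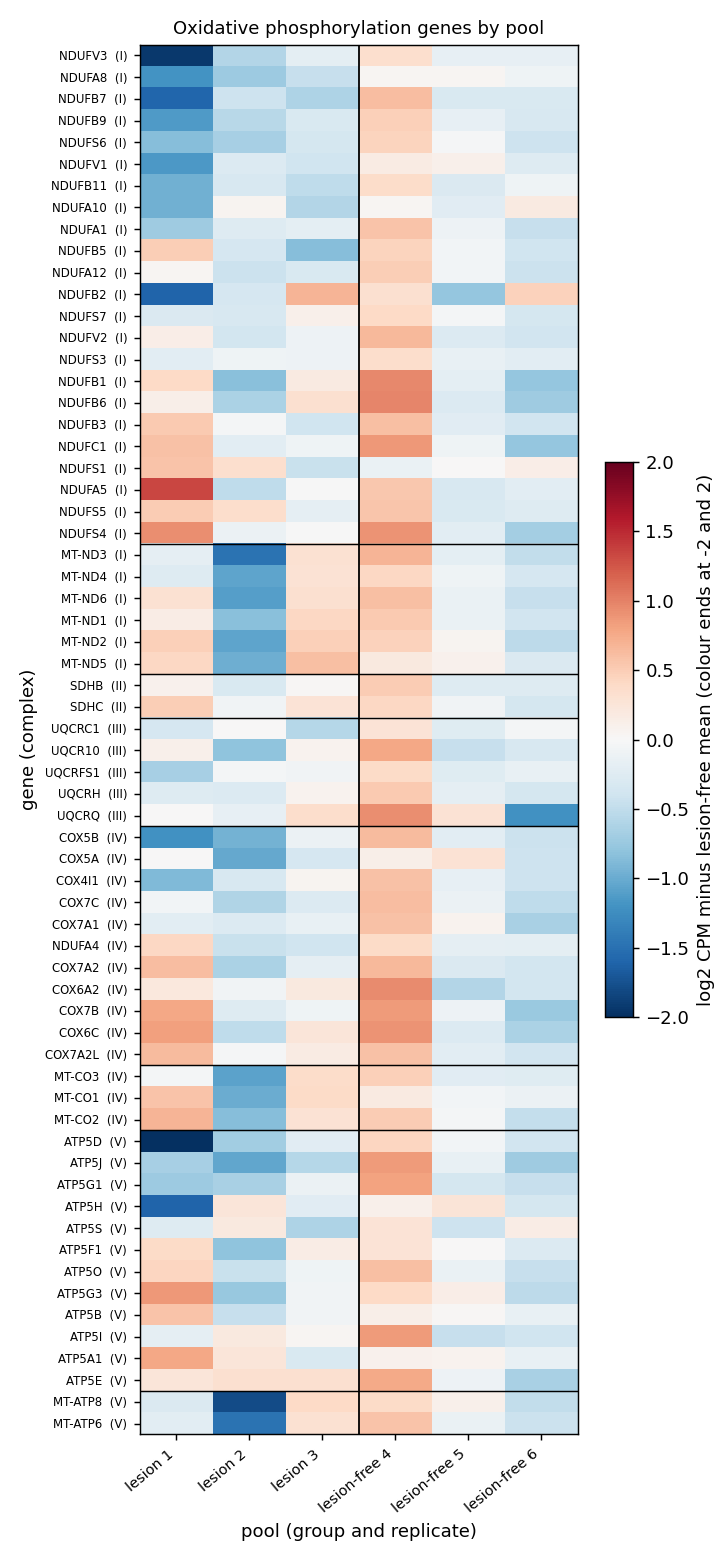
Log2 CPM of the tested genes described here (rows, by complex) in each pool (columns), as the difference from the gene's mean over the lesion-free pools. Red is higher and blue lower. Lesion pool 2 is blue in all 11 mitochondrial rows, lesion pool 1 holds the deepest blue among nuclear rows (ATP5D, -2.57) and also the deepest red (NDUFA5, 1.34), and lesion-free pool 4 is the highest pool in most rows.

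Complex I, the NADH dehydrogenase, had 24 nuclear members with a median log2 fold of -0.18, of which 19 lay below 0, and 6 mitochondrial members with a median of -0.12, of which 5 lay below 0. Its NADH-oxidising module takes up the electrons. NDUFV1, which binds the flavin cofactor, was measured at 55.2, 102 and 92.7 CPM in the lesion pools and 137, 132 and 102 CPM in the lesion-free pools. Its pools did not overlap, but lesion pool 2 almost reached lesion-free pool 6, and the log2 fold was -0.57 (SE 0.29, adjusted p = 0.516). NDUFV3, a small subunit of the same module, stood at 14.6, 37.4 and 48.8 CPM in lesion pools 1 to 3 and 71.1, 49.9 and 49.8 CPM in lesion-free pools 4 to 6, with lesion pool 1 far below the rest. Its log2 fold was -0.77 (SE 0.38, adjusted p = 0.498) and -0.39 without lesion pool 1. NDUFS6 had a log2 fold of -0.59, and NDUFV2, an iron-sulfur subunit, of -0.13. NDUFS1, the large iron-sulfur subunit, and NDUFS4 lay on the other side of 0, at 0.11 and 0.22. The 6 genes of the module thus ranged from -0.77 to 0.22, with none called.

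A second arm passes the electrons to ubiquinone. NDUFS3 and NDUFS7, core subunits of this arm, had log2 folds of -0.13 and -0.15. NDUFS3 was measured at 52.2, 56.8 and 56.2 CPM in the lesion pools and 77.2, 54.6 and 52.2 CPM in the lesion-free pools. Its pools overlapped between groups, and the 95% interval of its log2 fold ran from -0.73 to 0.47. NDUFA5, an accessory subunit of the arm, stood at 76.8, 21.5 and 30.2 CPM in lesion pools 1 to 3 and 44.1, 24.3 and 26.1 CPM in lesion-free pools 4 to 6. Every other pool lay below lesion pool 1 and above lesion pool 2, so that a log2 fold of 0.15 came with an SE of 0.43.

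Among 14 other accessory subunits, 12 lay below 0, with a median of -0.29, and in 3 of them the groups did not overlap, all lower in the lesion pools, where 8.97% of all genes did so. NDUFA8, a subunit on the intermembrane side of the complex, was measured at 16.4, 22.6 and 27.1 CPM in the lesion pools and 38.4, 38.6 and 35.4 CPM in the lesion-free pools. The lesion-free pools were close together and all lesion pools lay below them, with means of 22.0 ± 5.41 and 37.5 ± 1.80 CPM (SD, n = 3 each). Its log2 fold of -0.73 (SE 0.32, 95% interval -1.43 to -0.04) had an unadjusted p of 0.0395 and an adjusted p of 0.439. It lay between -0.59 and -0.90 when single pools were left out. NDUFB7 and NDUFB11, both of the membrane arm, were the other accessory subunits without overlap.

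NDUFB7 stood at 6.74, 15.4 and 13.3 CPM in lesion pools 1 to 3 and 31.4, 16.4 and 16.5 CPM in lesion-free pools 4 to 6. Lesion pool 1 was the lowest and lesion-free pool 4 the highest, while lesion pool 2 lay just below lesion-free pools 5 and 6, and the log2 fold was -0.73 (SE 0.45, adjusted p = 0.587). NDUFB11 had 33.9, 52.6 and 46.1 CPM in the lesion pools and 85.3, 54.0 and 61.7 CPM in the lesion-free pools, a log2 fold of -0.56 (SE 0.30) and an adjusted p of 0.533. Its highest lesion pool and lowest lesion-free pool differed by less than the pools within either group. NDUFB9, another membrane arm subunit, overlapped by a small margin, at 229.8, 344 and 407 CPM in lesion pools 1 to 3 and 702, 452 and 405 CPM in lesion-free pools 4 to 6. Its log2 fold was -0.67 (SE 0.30), with an unadjusted p of 0.0435, and fell in size to -0.43 without lesion pool 1 and to -0.43 without lesion-free pool 4. At the other end, NDUFS5 had a log2 fold of 0.21 and NDUFC1 of 0.03, and neither passed. NDUFB2, with the largest SE of all members (0.55), was measured at 4.43, 10.8 and 22.1 CPM in the lesion pools and 17.1, 8.03 and 18.8 CPM in the lesion-free pools, an order of pools that separates no group.

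The mitochondrial members of complex I form the proton-pumping core of its membrane arm. MT-ND1 stood at 2934, 1486 and 3502 CPM in lesion pools 1 to 3 and 3775, 2409 and 2023 CPM in lesion-free pools 4 to 6. Lesion pools 1 and 3 lay within the lesion-free range and lesion pool 2 below it, and this held for MT-ND3, MT-ND4 and MT-ND6 also. MT-ND3 was measured at 758, 306 and 1053 CPM in the lesion pools and 1374, 751 and 606 CPM in the lesion-free pools. MT-ND4 stood at 5904, 3415 and 8717 CPM in lesion pools 1 to 3 and 9445, 6704 and 5647 CPM in lesion-free pools 4 to 6. MT-ND6, the member encoded on the other strand of the mitochondrial genome, had 1684, 631 and 1691 CPM in the lesion pools and 2055, 1234 and 989 CPM in the lesion-free pools. Their log2 folds were -0.45 for MT-ND3, -0.34 for MT-ND4, -0.15 for MT-ND6 and -0.09 for MT-ND1. MT-ND2 had 2844, 982 and 2839.6 CPM in lesion pools 1 to 3 and 2808, 2129.7 and 1426 CPM in lesion-free pools 4 to 6. MT-ND5 had 4878, 1847 and 5537 CPM in the lesion pools and 4163, 3886 and 3000.2 CPM in the lesion-free pools. In both, lesion pools 1 and 3 were above all lesion-free pools and lesion pool 2 below them, which gave log2 folds near 0, -0.03 and 0.02, with SEs of 0.41 and 0.38.

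Complex II, succinate dehydrogenase, links the citric acid cycle to the chain and was represented by 2 members. SDHB, the iron-sulfur subunit, was measured at 82.0, 62.7 and 78.3 CPM in lesion pools 1 to 3 and 110.0, 64.5 and 64.9 CPM in lesion-free pools 4 to 6. SDHC, a membrane anchor, stood at 89.3, 60.4 and 76.9 CPM in the lesion pools and 84.7, 60.7 and 49.7 CPM in the lesion-free pools. Both overlapped between groups. Their log2 folds of -0.08 and 0.21 had 95% intervals of -0.71 to 0.55 and -0.42 to 0.84, each inside a 2-fold difference.

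Complex III, the cytochrome bc1 complex, had 5 nuclear members, of which 4 lay below 0, with a median of -0.22. UQCRC1, a core protein, was measured at 59.3, 75.1 and 50.3 CPM in lesion pools 1 to 3 and 90.7, 63.3 and 72.8 CPM in lesion-free pools 4 to 6, and its log2 fold was -0.30 (SE 0.28). UQCRFS1, the Rieske iron-sulfur protein, stood at 49.9, 77.0 and 75.5 CPM in the lesion pools and 104, 66.8 and 71.4 CPM in the lesion-free pools, a log2 fold of -0.22 (SE 0.29). In both genes lesion pool 2 lay within the lesion-free range. The small subunits UQCR10 and UQCRH had log2 folds of -0.24 and -0.15. UQCRQ was measured at 22.7, 20.2 and 28.8 CPM in lesion pools 1 to 3 and 42.7, 27.6 and 9.66 CPM in lesion-free pools 4 to 6, with a log2 fold of 0.10. Its lesion pools all lay inside the wide lesion-free range.

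Complex IV, cytochrome c oxidase, reduces oxygen. Its 11 tested nuclear members had a median log2 fold of -0.16, with 7 below 0, and its 3 mitochondrial members a median of -0.00. COX5B was measured at 139.6, 168 and 299.5 CPM in the lesion pools and 503, 281 and 239 CPM in the lesion-free pools. Lesion pools 1 and 2 were below all lesion-free pools, and lesion pool 3 lay among them. The log2 fold of -0.75 (SE 0.34) had an unadjusted p of 0.0471 and an adjusted p of 0.464, and became -0.43 without lesion-free pool 4. COX5A, its partner around the catalytic core, stood at 46.8, 22.8 and 36.9 CPM in lesion pools 1 to 3 and 50.5, 56.6 and 34.9 CPM in lesion-free pools 4 to 6, with a log2 fold of -0.50 (SE 0.34). COX4I1, the general form of subunit 4, had 338, 501 and 651 CPM in the lesion pools and 938, 556 and 468 CPM in the lesion-free pools and a log2 fold of -0.39 (SE 0.33), with lesion pool 1 the lowest. COX6C, at 0.19, and COX7A2L, which helps complexes III and IV associate, at 0.26, were the highest log2 folds of the complex, and both overlapped between groups.

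Some subunits of complex IV exist in a muscle form and a general form. COX7A1, the muscle form of subunit 7a, was measured at 43.5, 41.8 and 45.3 CPM in lesion pools 1 to 3 and 75.8, 52.8 and 32.1 CPM in lesion-free pools 4 to 6. The general form, COX7A2, stood at 197, 82.4 and 113 CPM in the lesion pools and 202, 105 and 99.2 CPM in the lesion-free pools. The lesion pools of COX7A1 were nearly equal and inside the lesion-free range, whereas COX7A2 varied among the lesion pools, and the log2 folds were -0.21 (SE 0.34) and -0.09 (SE 0.36). COX6A2, the muscle form of subunit 6a, had 16.6, 13.8 and 16.4 CPM in lesion pools 1 to 3 and 27.7, 9.59 and 11.2 CPM in lesion-free pools 4 to 6 and a log2 fold of 0.08 (SE 0.45). Markers of heart muscle summed to at most 1.34 CPM in any pool, while those of skeletal muscle summed to 102 to 123 CPM in the lesion pools and 178 to 259 CPM in the lesion-free pools, nearly all of it from ACTA1 and PYGM. NDUFA4 had a log2 fold of -0.16 and COX7B of 0.12. COX8C and COX8H had 0 counts in all 6 pools. At 3 counts the limit that a count of 0 allows is 0.577 CPM in lesion pool 1 and 0.268 to 0.360 CPM in the other pools, for counting error only. No gene was found under the names COX4I2 or COX6A1, the other forms of subunits 4 and 6a, so these forms were not analysed.

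The catalytic core of complex IV is mitochondrial. MT-CO1, which holds the site where oxygen is reduced, stood at 11953, 4033 and 10533 CPM in the lesion pools and 9083, 7776 and 7414 CPM in the lesion-free pools. MT-CO2, which receives electrons from cytochrome c, was measured at 5295, 1827 and 4025 CPM in lesion pools 1 to 3 and 4699, 3225 and 2387 CPM in lesion-free pools 4 to 6. MT-CO3 stood at 6681, 3272 and 8859 CPM in the lesion pools and 9501, 5825 and 5786 CPM in the lesion-free pools. MT-CO1 and MT-CO2 were highest in lesion pool 1, and all 3 genes were lowest in lesion pool 2. The log2 folds of -0.00, 0.04 and -0.24 came with SEs of 0.38, 0.39 and 0.37. Without lesion pool 2 the median of these 3 genes was 0.47.

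Complex V, the ATP synthase, had 12 nuclear members with a median log2 fold of -0.08, of which 7 lay below 0, and it held the members at both ends of the range. In the catalytic head, ATP5A1 and ATP5B encode the alpha and beta chains that carry the nucleotide sites. ATP5A1 was measured at 319, 219.5 and 150.5 CPM in lesion pools 1 to 3 and 198, 195 and 168 CPM in lesion-free pools 4 to 6. ATP5B stood at 315, 154 and 201 CPM in the lesion pools and 230.1, 216 and 191 CPM in the lesion-free pools. Both were highest in lesion pool 1, and their log2 folds were 0.23 (SE 0.29) and 0.01 (SE 0.29). ATP5D, the delta chain of the central stalk, went the other way in lesion pool 1, at 29.1, 108 and 149 CPM in lesion pools 1 to 3 and 234, 168 and 133 CPM in lesion-free pools 4 to 6. Its log2 fold was -1.06 (SE 0.50, adjusted p = 0.485), the lowest of all members, and -0.45 without lesion pool 1. ATP5E, the epsilon chain next to delta, stood at 355, 374 and 376 CPM in the lesion pools and 504, 279 and 192 CPM in the lesion-free pools. Its lesion pools were nearly equal and inside the lesion-free range, and its log2 fold of 0.30 (SE 0.32) was the highest of all members, becoming 0.67 without lesion-free pool 4.

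The peripheral stalk holds the head in place, and its 4 members all lay below 0, with a median of -0.23. ATP5J, coupling factor 6, was measured at 88.0, 67.5 and 94.1 CPM in lesion pools 1 to 3 and 251, 126 and 85.2 CPM in lesion-free pools 4 to 6. The lesion pools lay at the low end of the lesion-free pools, overlapping the lowest of them, and lesion-free pool 4 was far above the rest. Its log2 fold of -0.76 (SE 0.36, adjusted p = 0.473) became -0.34 without lesion-free pool 4. ATP5H, ATP5F1 and ATP5O had log2 folds of -0.34, -0.12 and -0.04. The c ring turns as protons pass. Of its genes, which encode the same mature protein, ATP5G1 stood at 49.9, 52.6 and 75.9 CPM in the lesion pools and 145, 64.8 and 59.6 CPM in the lesion-free pools. ATP5G3 was measured at 289, 93.5 and 151 CPM in lesion pools 1 to 3 and 207, 173 and 110.2 CPM in lesion-free pools 4 to 6. The first was lowest and the second highest in lesion pool 1, and the log2 folds were -0.48 (SE 0.35) and 0.00 (SE 0.38). ATP5I, a membrane subunit, had 0.02, and ATP5S, coupling factor B, -0.23. ATPIF1, the inhibitor that blocks the enzyme when it would run backwards and no member by symbol, had a log2 fold of -0.01 (SE 0.33, adjusted p = 0.995).

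MT-ATP6 encodes the channel subunit against which the c ring turns, and MT-ATP8 a small neighbour whose reading frame overlaps it, so that their counts cannot be fully separated. MT-ATP6 was measured at 9797, 4091 and 13933 CPM in the lesion pools and 16732, 10286 and 8434 CPM in the lesion-free pools. MT-ATP8 stood at 839, 295 and 1351 CPM in lesion pools 1 to 3 and 1329.6, 1103 and 731 CPM in lesion-free pools 4 to 6. Lesion pool 2 was the lowest in both, while lesion pool 3 lay within or just above the lesion-free range. Their log2 folds of -0.46 (SE 0.42, adjusted p = 0.734) and -0.56 (SE 0.48, adjusted p = 0.713) had a median of -0.51, the lowest of any complex and genome. That median was 0.04 without lesion pool 2 and -0.93 without lesion pool 3.

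The symbol rule missed 12 further subunit genes, 11 of which were named from their identifiers with a pig gene reference and 1, CYTB, from its unprefixed symbol. Of these, 11 passed the filter and 0 were called, with a median log2 fold of -0.07. CYTB, the mitochondrial subunit of complex III, stood at 4506, 1594 and 5268 CPM in the lesion pools and 6258, 4105 and 3939 CPM in the lesion-free pools. ND4L, a mitochondrial subunit of complex I, had 449, 162 and 354 CPM in lesion pools 1 to 3 and 262, 346 and 268 CPM in lesion-free pools 4 to 6. Lesion pool 2 was again the lowest for both, with log2 folds of -0.47 for CYTB and 0.03 for ND4L. NDUFA11, which joins the membrane arm of complex I, was measured at 8.47, 39.9 and 67.5 CPM in the lesion pools and 97.5, 66.7 and 62.4 CPM in the lesion-free pools. Lesion pool 1 was again far below the rest, and the log2 fold was -1.15 (SE 0.54, adjusted p = 0.485). NDUFA4L2, which did not pass the filter, had 0, 4 and 11 counts in the lesion pools and 64, 0 and 19 counts in the lesion-free pools. COX8A, the general form of subunit 8, had a log2 fold of -0.48, and NDUFA6, the highest of these genes, one of 0.52 (SE 0.55, adjusted p = 0.773).

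Genes that build, feed or serve the complexes were also described by lists. Of 55 assembly factors listed, 33 were tested and 0 were called, with 11 above 0, 22 below 0 and a median log2 fold of -0.24. Among those of complex I, NDUFAF5 had the lowest log2 fold, -1.93 (SE 1.16, adjusted p = 0.584), and NDUFAF1 the highest, 0.60 (SE 0.51, adjusted p = 0.708). NDUFAF5 stood at 0, 6.52 and 3.38 CPM in lesion pools 1 to 3 and 9.28, 7.08 and 7.22 CPM in lesion-free pools 4 to 6. No count of NDUFAF5 was seen in lesion pool 1. It was 1 of 3 among the 13 tested complex I factors that were lower without overlap, where 8.97% of all genes were. For complex IV the extremes were COX18, at -1.97, and COA4, at 1.05, both at low levels with SEs above 1. SDHAF2 and SDHAF1 of complex II had log2 folds of -0.28 and 0.10. For complex III the extremes were 2 entries of TTC19 at unlike levels. The entry with means of 65.3 CPM in the lesion and 113 CPM in the lesion-free pools had -0.78 (SE 0.27, adjusted p = 0.269). The entry with means of 5.46 and 2.84 CPM had 0.85 (SE 0.75, adjusted p = 0.715). In both entries the groups did not overlap, as in 19.4% of all genes tested. TMEM70, needed to build complex V, had 0.10. For the mobile electron carrier, CYCS had a log2 fold of -0.13 (SE 0.29), and NDUFAB1, the acyl carrier protein of complex I, one of -0.19 (SE 0.41).

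The carriers that exchange ADP for ATP across the inner membrane differed in sign. SLC25A4, the muscle form, was measured at 80.5, 125 and 98.3 CPM in the lesion pools and 204, 115 and 134 CPM in the lesion-free pools, with a log2 fold of -0.54 (SE 0.29, adjusted p = 0.538). SLC25A5, the form of dividing and many non-muscle cells, stood at 111, 38.0 and 42.8 CPM in lesion pools 1 to 3 and 25.0, 23.3 and 20.3 CPM in lesion-free pools 4 to 6. Its lesion pools were all above the lesion-free pools, but its log2 fold of 1.22 (SE 0.40) had an adjusted p of 0.246. UCP2, an uncoupling protein, had the highest log2 fold of the list, 1.37 (SE 0.64, adjusted p = 0.467), at 7.31, 10.6 and 15.4 CPM in the lesion pools and 7.66, 2.40 and 4.27 CPM in the lesion-free pools, and its groups overlapped. None of the 7 carriers and channels tested was called. Regulators of mitochondrial transcription and biogenesis gave 13 tested genes, 0 called and a median of -0.06. TEFM, with at most 23 counts in a pool, was lowest at -1.09 (SE 1.68). LRPPRC, which stabilises mitochondrial messengers, was highest at 0.68 (SE 0.32, adjusted p = 0.474). LRPPRC was higher without overlap, where 10.5% of all genes were. NRF1, at -0.88 (SE 0.46, adjusted p = 0.523), and ESRRA, at -0.69 (SE 0.31, adjusted p = 0.459), were lower without overlap, where 8.97% of all genes were. Pyruvate dehydrogenase and the citric acid cycle, which supply NADH and succinate, gave 18 tested entries, 0 called and a median of -0.01. IDH3G had the lowest log2 fold of these, at -0.84, and SUCLA2 the highest, at 0.33. Mitochondrial ribosomal proteins gave 59 tested genes, 0 called, 46 below 0 and a median of -0.15, the same median as the members. MRPS25 was the lowest of these, at -1.43 (SE 1.31), and MRPL21 the highest, at 0.85 (SE 0.46).

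Isoform counts could be tied to 58 of the 67 members, whose isoforms summed to the gene's count within 1. For 61 isoforms of members that passed the filter, 0 were called, where 0.45% of all 12666 isoforms tested passed. Isoform use could be tested in 3 members, COX7B, ATP5E and NDUFB9, with adjusted p of 0.920, 0.920 and 0.958 (limma's diffSplice, Simes), and 0 were called, where 0% of all 601 genes tested passed. NDUFB9-201 took 48.3%, 17.0% and 37.7% of the NDUFB9 counts in the lesion pools and 45.4%, 34.9% and 29.9% in the lesion-free pools. Its share thus varied most among the lesion pools, on both sides of the lesion-free values. COX7B-003 took 30.7%, 14.3% and 15.2% of the COX7B counts in the lesion pools and 16.8%, 9.87% and 1.71% in the lesion-free pools, and the groups overlapped.

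The counts of NDUFS7 fell on different isoforms in different pools, in a way that followed neither group. NDUFS7-201 had 0, 407 and 532 counts in lesion pools 1 to 3 and 551, 146 and 349 counts in lesion-free pools 4 to 6. NDUFS7-202 had 193 counts in lesion pool 1, 219 counts in lesion-free pool 5 and 0 counts in the other 4 pools. At the gene level NDUFS7 stood at 37.2, 36.4 and 48.6 CPM in lesion pools 1 to 3 and 59.5, 43.8 and 35.5 CPM in lesion-free pools 4 to 6. The deposited counts share reads between isoforms by estimation, and the error of that estimate is not in the files.

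**Figure D4:**
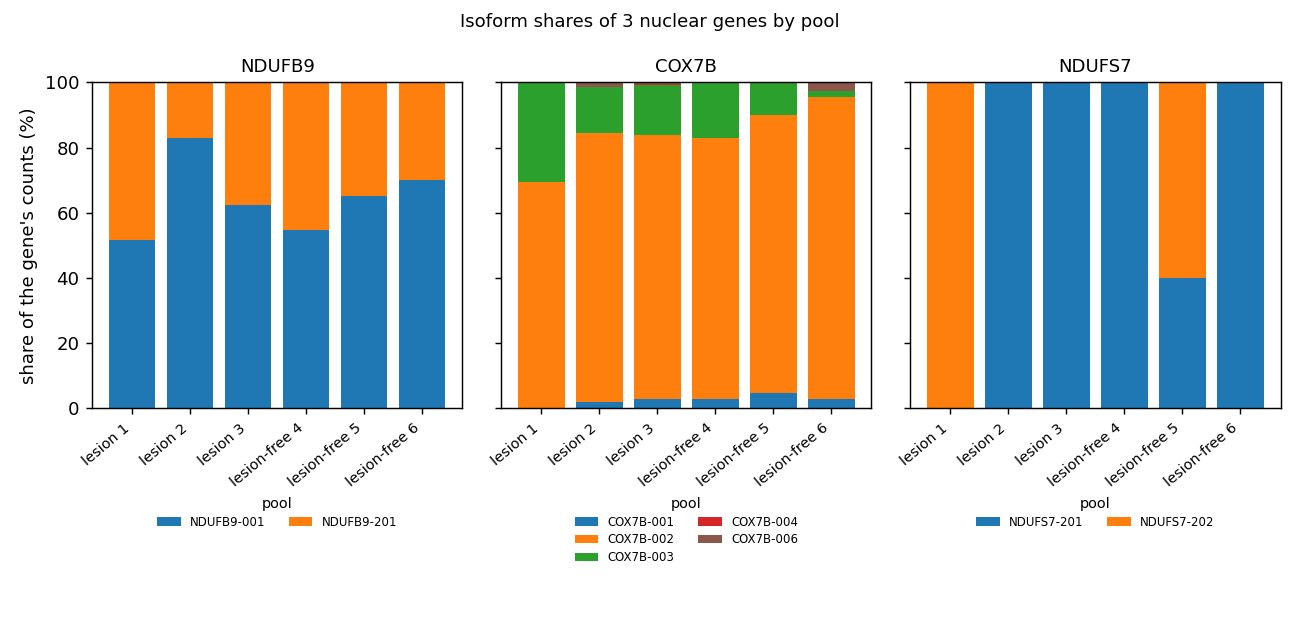
Share of the counts of NDUFB9, COX7B and NDUFS7 (y axis, percent) taken by each isoform in each pool (x axis), as stacked bars. NDUFS7-202 takes 100% in lesion pool 1 and 60.0% in lesion-free pool 5 and none in the other 4 pools, and the share of NDUFB9-201 runs from 17.0% in lesion pool 2 to 48.3% in lesion pool 1.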

How the data were processed

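The authors deposited 1 table of genes and 1 of isoforms, holding raw estimated counts per pool as whole numbers with digit-grouping commas, which were removed. RSEM 1.3.0 and edgeR are listed, with no role stated, per the submitters' processing notes. Aligner and build: not given in the sources used here. A stranded total RNA kit was used, per the labels' protocols. RSEM divides reads among similar genes and isoforms by estimation, so counts of near-identical genes are uncertain.

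Groups came from the labels, and all 6 pools entered 1 fit. Libraries were scaled by trimmed means of M values (30% of M and 5% of A trimmed). Genes needed 1.00 CPM, equal to 10 counts at the median depth, in at least 3 pools and 15 counts in all. limma 3.58.1 in R 4.3.3 was run with voom weights (0.5 added to each count) and robust empirical Bayes moderation, two-sided, with Benjamini-Hochberg adjustment over all genes tested and a threshold of 0.05. The script was tested on simulated data. Count models were set aside because values with commas are not recorded as plain counts. Within groups, any 2 pools differed by a chi-square of 22.7 to 97.7 per degree of freedom, so no pool repeated another. Of the members' identifiers, 41 were in the pig RefSeq name table, 25 with the same symbol.

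Genes described were all mitochondrial members, the extremes of each complex and pathway list, and muscle and general forms, with other members by role. Members and lists were chosen with earlier results of these data known. The values of 1 member are not reported here. Medians and counts over members are descriptions without a test. Alternatives were other scalings, no low-count filter, an unweighted fit, sample quality weights and leaving out each pool.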

Additional observations from a re-analysis of the deposited data

How the results depend on the processing

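No member was called under any of the 12 alternatives, and no member isoform under total count scaling or with any single pool left out. The smallest adjusted p of a member was 0.185, for ATP5D without lesion pool 3. The smallest was 0.281 without lesion-free pool 6 and 0.288, for NDUFA8, with sample quality weights. Over all genes, 113 were called higher and 9 lower. These counts were 171 and 17 with no low-count filter, 213 and 40 with sample quality weights, and 55 to 150 and 4 to 36 with single pools left out, and the cause was not tested. The members with a log2 fold below 0 numbered 43 with sample quality weights and 46 to 48 with median-ratio size factors, mitochondrial genes out of the library, no low-count filter or the unweighted fit. The members lower at an unadjusted p under 0.05 numbered 7 without lesion pool 3, 5 without lesion-free pool 6, 0 without lesion pool 1, lesion pool 2, lesion-free pool 4 or lesion-free pool 5, 0 under total count scaling, and 1 in the unweighted fit and with sample quality weights. Those higher numbered 1 with sample quality weights and 1 without lesion-free pool 4, and 0 otherwise. The log2 fold moved by more than 1 standard error in 13 members without lesion-free pool 4 and in 12 without lesion pool 2. It did so in 4 with sample quality weights, in 3 without lesion pool 1 and in 1 without lesion-free pool 6. Under the other alternatives it did so in 0 members. No paired analysis was possible because the pool numbers of the groups are not shared.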
